A study of Mus musculus with 18 samples.

Results

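C1qa, C1qb and C1qc encode the A, B and C chains of complement C1q, and they are 3 of the 55487 genes listed in both expression tables of an RNA-seq study of BV2 cells, an immortalised mouse microglial line. The 3 genes were picked by their symbols, with earlier results of these data in view. Their levels in the 6 groups are therefore given below as a description, with no test. The labels give total RNA and a library kit based on tagmentation. Each group held 3 libraries, 18 in all. The NC groups were BV2 cells labelled NC, and the KD groups were BV2 cells labelled BAK1-KD. Bak1 encodes a pore-forming protein of the mitochondrial outer membrane in apoptosis. How the knockdown was made, whether the KD cells were 1 clone and what the NC cells had received were details not given in the sources used here. Within NC and within KD, the control group had no oxyhemoglobin (0 h in the design), and the other groups had 12 h or 24 h of oxyhemoglobin at a labelled 10 mM, added 12 h after seeding. Oxyhemoglobin, the oxygen-carrying protein of red blood cells, is used on cultured cells to model bleeding around the brain. No group without oxyhemoglobin was harvested at the 12 h or 24 h time, so time in culture and treatment cannot be told apart.

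C1q is the recognition molecule of the classical complement pathway. Its A, B and C chains each carry a short N-terminal region, a collagen-like stretch that winds with the other chains into a triple helix, and a globular head that binds antibodies, C-reactive protein, apoptotic cells and other ligands. Bound C1q activates the proteases C1r and C1s, which cleave C4 and C2 and so lead to the cleavage of C3. Most complement proteins are made in the liver, but C1q is made mainly by macrophages and dendritic cells, and in the brain by microglia, where C1q and C3 take part in the removal of synapses during development.

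The 3 genes lie side by side on the minus strand of mouse chromosome 4. In the GENCODE M21 annotation of GRCm38, C1qb (ENSMUSG00000036905) spans 4:136880129-136886187, C1qc (ENSMUSG00000036896) spans 4:136889804-136893065 and C1qa (ENSMUSG00000036887) spans 4:136895917-136898803. The cluster covers 18675 bases, with gaps of 3616 bases between C1qb and C1qc and 2851 bases between C1qc and C1qa. Each gene has 3 blocks of exon sequence, and no other annotated gene overlaps their exons. The lengths in the deposited TPM table are 1088 bases for C1qb and 1040 bases for C1qa, equal to the annotated exon bases, and 2149 bases for C1qc against 1931 annotated. No stretch of 30 bases is shared between the transcripts of the 3 genes or with the transcripts of any other annotated gene, so reads of that length can be placed.

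The collagen-like stretch is the feature by which the chains are most readily recognised in the transcript, because 1 codon in every 3 codes for glycine. The longest uninterrupted run of that pattern is printed below for each gene, read from the GENCODE M21 coding sequence, with the first letters of each glycine codon of the pattern, GG, in capitals.
C1qa: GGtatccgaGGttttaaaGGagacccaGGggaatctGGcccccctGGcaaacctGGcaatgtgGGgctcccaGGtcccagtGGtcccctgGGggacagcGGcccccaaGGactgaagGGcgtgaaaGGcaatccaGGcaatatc
C1qb: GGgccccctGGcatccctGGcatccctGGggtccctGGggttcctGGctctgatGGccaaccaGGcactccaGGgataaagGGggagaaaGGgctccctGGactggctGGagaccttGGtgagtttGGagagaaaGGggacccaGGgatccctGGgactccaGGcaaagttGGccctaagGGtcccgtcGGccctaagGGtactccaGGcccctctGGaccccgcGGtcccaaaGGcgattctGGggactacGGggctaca
C1qc: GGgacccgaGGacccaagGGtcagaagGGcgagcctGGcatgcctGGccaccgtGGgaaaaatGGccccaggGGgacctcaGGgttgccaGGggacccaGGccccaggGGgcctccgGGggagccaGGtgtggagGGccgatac
The run holds 29 repeats in C1qb, from codon 31 to codon 117. It holds 16 repeats in C1qa, from codon 62 to codon 109, and 16 repeats in C1qc, from codon 68 to codon 115. In C1qa and C1qc the run is shorter than the whole collagen-like stretch, since a break in the pattern ends it. The coding sequences have 245 codons in C1qa, 253 in C1qb and 246 in C1qc, of which 39, 40 and 39 code for glycine.

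The sequence before the start of transcription is shown because the levels of the 3 genes moved together across the groups. The RefSeq promoter table (GRCm38.p6) held 2 of the 3 genes, C1qb and C1qc. All 250 bases before the RefSeq start are printed for C1qb (chr4:136886201-136886450), and for C1qc the 99 bases that lie outside annotated exons (chr4:136893066-136893164). Capitals mark GAGGAA, a core recognised by PU.1, the myeloid factor encoded by Spi1, or its reverse complement TTCCTC, and TGCTGA, the core of the element bound by MAF factors.
C1qb: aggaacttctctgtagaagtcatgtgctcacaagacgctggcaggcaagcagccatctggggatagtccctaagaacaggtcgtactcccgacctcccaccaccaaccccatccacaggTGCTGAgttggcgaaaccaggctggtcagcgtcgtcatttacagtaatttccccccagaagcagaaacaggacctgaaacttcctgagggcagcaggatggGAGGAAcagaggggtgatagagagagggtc
C1qc: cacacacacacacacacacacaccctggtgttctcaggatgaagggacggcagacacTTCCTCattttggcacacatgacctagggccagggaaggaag
Both strands of the 250 bases before each RefSeq start were searched. For C1qc, 151 of these bases lie in the annotated GENCODE exon, so the positions in the 2 genes are not directly comparable. GAGGAA began at position -30 of C1qb and was found on the other strand at -193 of C1qc, and 23.1% of 27025 promoters of the same length hold it. TGCTGA was found once in C1qb, at -131, and not in C1qc, against 15.8% of promoters. The letters TGANTCA (bound by AP-1, held by 6.87% of promoters) and TATAAA (the TATA box, 13%) were not in either window. These matches are letters only. No binding was measured.

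Total counts were 4361313 to 6008810 per library. CT010467.2 alone accounted for 12.9% to 25.3% of a library's counts and for 36.2% to 56.1% of its TPM, so the TPM of the other genes shift with it. CPM, counts scaled to library sizes corrected with TMM factors of 0.907 to 1.14, are therefore used to compare groups, and TPM serves to compare the subunits with each other. Pairs of libraries within a group had a chi-square of 4.50 to 17.3 per degree of freedom, above counting noise, so each counts as its own replicate. Separate cultures are not named in the labels, and the p-values speak of the spread among these libraries alone, which may be technical. Bak1 RNA itself was not lower in KD, with 25 counts over the 9 NC libraries and 39 over the 9 libraries labelled KD. The labelled knockdown was thus not seen in these counts, which are few. Microglia and macrophage genes were present in every library, at a summed 3991 to 7609 CPM for 14 macrophage identity genes and 554 to 1291 CPM for 22 homeostatic microglia genes, of which 2 had no count.

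Without oxyhemoglobin, all 3 C1q genes were far higher in the KD-labelled cells than in the NC cells. C1qb was at 8.35, 5.61 and 6.13 CPM in the NC control libraries and at 73.0, 42.8 and 87.4 CPM in the KD control libraries. C1qc was at 4.80, 1.32 and 3.06 CPM in NC control and at 56.6, 47.9 and 46.8 CPM in KD control. C1qa, the lowest of the 3, had 0, 2 and 2 counts in NC control and 47, 39 and 25 counts in KD control. Every KD library was above every NC library for each gene, as were the KD libraries for 7.88% of the 15996 genes tested. The log2 difference, KD minus NC, was 3.34 ± 0.33 (SE) for C1qb and 4.07 ± 0.33 (SE) for C1qc, or 10.1-fold and 16.7-fold. For C1qa the ratio of the summed count rates was 27.2, with a 95% interval of 10.3 to 102 that covers counting error only. In bulk RNA, fewer cells of a type and less RNA per cell cannot be told apart, and this holds for every level given here. Beside this difference, the summed level of 8 neuron markers was 1.15 to 3.88 CPM in the NC libraries and 4.18 to 13.2 CPM in the KD libraries, so it differed between the lines in the same direction. Rbfox3, Syt1, Snap25, Nefl and Stmn2, 5 of those 8, had no count, and the sum came mostly from Tubb3, a tubulin gene. Tubb3 was higher in KD by 2.78 ± 0.47 (SE) at 12 h (adjusted p = 0.0024). At 24 h it was higher in KD by 2.27 (adjusted p under 0.05), a call lost without KD 24 h library 1 or 3 or NC 24 h library 2 or 3. The Tubb3 difference in control was 1.36 (adjusted p = 0.144, and 0.0107 with the library number as a block). The part of these markers in the C1q difference was not tested.

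**Figure D1:**
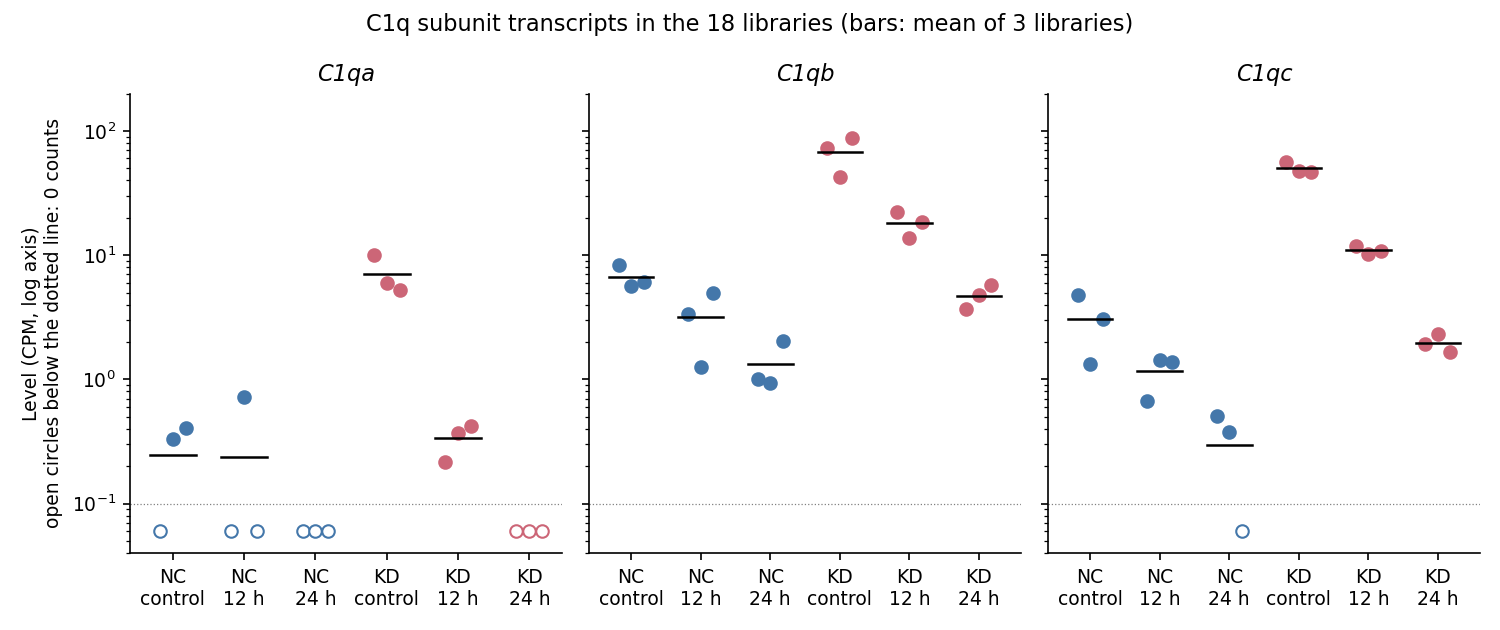
Level of C1qa, C1qb and C1qc in each of the 18 libraries, in TMM-scaled CPM on a log axis, by group (NC in blue, KD in red, 3 libraries a group). Open circles mark libraries with 0 counts. In both lines C1qb and C1qc step down from control to 12 h and 24 h, and C1qa has counts well above the floor only in KD control.

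In NC cells, the C1q genes were lower after oxyhemoglobin, on a low starting level. C1qb was at 3.38, 1.26 and 4.95 CPM at 12 h and at 1.01, 0.941 and 2.03 CPM at 24 h, against a control mean of 6.69 ± 1.46 CPM (SD, n = 3). Every library at 12 h and at 24 h lay below every control library. C1qc was at 0.675, 1.44 and 1.39 CPM at 12 h, which overlapped with its control libraries, and at 0.507, 0.377 and 0 CPM at 24 h, which did not. Of all genes tested, 13% were lower without overlap at 12 h and 10.2% at 24 h. The log2 change from control to 12 h was -1.07 ± 0.39 (SE) for C1qb and -1.31 ± 0.44 (SE) for C1qc, or 2.10-fold and 2.48-fold lower. By 24 h it was -2.28 ± 0.44 (SE) for C1qb and -3.33 ± 0.59 (SE) for C1qc, or 4.85-fold and 10.1-fold lower. The step from 12 h to 24 h was -1.21 ± 0.49 (SE) for C1qb, whose libraries overlapped, and -2.02 ± 0.69 (SE) for C1qc, whose libraries did not, beside 7.97% of genes that were lower without overlap in that step.

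C1qa was near or under the floor of 3 counts in all 9 NC libraries. It had 4 counts over the control libraries, 4 counts at 12 h, all in library 2, and none at 24 h. That floor stood at 0.495 to 0.760 CPM in the single NC libraries. At 24 h C1qa was at least 1.24-fold lower than in control, with the floor taken over the group, which sets almost no limit on the change. The mean log2 change of the 3 subunits at 12 h was -0.78, and without NC 12 h library 2 it was -1.89, because that library held all the C1qa counts of its group.

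In KD cells, the C1q genes started high, so their decline could be followed over more counts. C1qb was at 22.2, 13.9 and 18.5 CPM at 12 h and at 3.68, 4.81 and 5.72 CPM at 24 h, from a control mean of 67.7 ± 22.7 CPM (SD, n = 3). C1qc was at 11.9, 10.2 and 10.7 CPM at 12 h and at 1.93, 2.30 and 1.67 CPM at 24 h, from a control mean of 50.4 ± 5.35 CPM (SD, n = 3). C1qa had 1, 2 and 2 counts at 12 h and no count at 24 h, from a control mean of 7.06 ± 2.60 CPM (SD, n = 3). For C1qb and C1qc the control libraries, the 12 h libraries and the 24 h libraries did not overlap. C1qa was lower in every treated library than in any control library, while its counts at 12 h were under the floor of 3 counts and so cannot be told from the 0 counts at 24 h. Groups without overlap were found for 15.7% of genes tested that were lower at 12 h than in control, 13.4% lower at 24 h than in control and 9.31% lower at 24 h than at 12 h.

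The log2 change from control to 12 h in KD cells was -1.89 ± 0.30 (SE) for C1qb, or 3.72-fold lower. For C1qc it was -2.21 ± 0.29 (SE), or 4.61-fold lower, and for C1qa it was -4.29 ± 0.75 (SE), or 19.5-fold lower, which rests on 5 counts at 12 h. By 24 h the change was -3.84 ± 0.35 (SE) for C1qb and -4.66 ± 0.35 (SE) for C1qc, or 14.4-fold and 25.3-fold lower. C1qa was at least 33.9-fold lower at 24 h than in control. Between 12 h and 24 h, C1qb fell by 1.95 ± 0.35 (SE) on the log2 scale and C1qc fell by 2.45 ± 0.36 (SE). For each of these genes the first and the later step differed by less than 1 SE.

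The excess of C1q in KD cells was smaller at the later times but still present for C1qb and C1qc. At 12 h the log2 difference, KD minus NC, was 2.52 ± 0.37 (SE) for C1qb and 3.17 ± 0.39 (SE) for C1qc, or 5.72-fold and 9.01-fold. At 24 h it was 1.77 ± 0.47 (SE) for C1qb and 2.74 ± 0.64 (SE) for C1qc, or 3.42-fold and 6.69-fold. At both times the KD libraries of these 2 genes lay above all NC libraries, as did 7% of genes tested at 12 h and 7.68% at 24 h. C1qa had 5 counts in KD and 4 in NC at 12 h and none in either at 24 h, so no fold is given. The log2 change with oxyhemoglobin in KD minus that in NC was -0.82 ± 0.50 (SE) at 12 h and -1.57 ± 0.61 (SE) at 24 h for C1qb. For C1qc it was -0.89 ± 0.56 (SE) at 12 h and -1.32 ± 0.98 (SE) at 24 h. By these estimates both genes declined by more in KD at both times. The SEs are large beside the differences for C1qc and for C1qb at 12 h, and less so for C1qb at 24 h. The C1qc value at 24 h rests on 4 counts in NC at 24 h. The time comparisons within a line share its control libraries, and the line comparisons reuse the same libraries, so the values stand side by side and are not independent of each other.

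**Figure D2:**
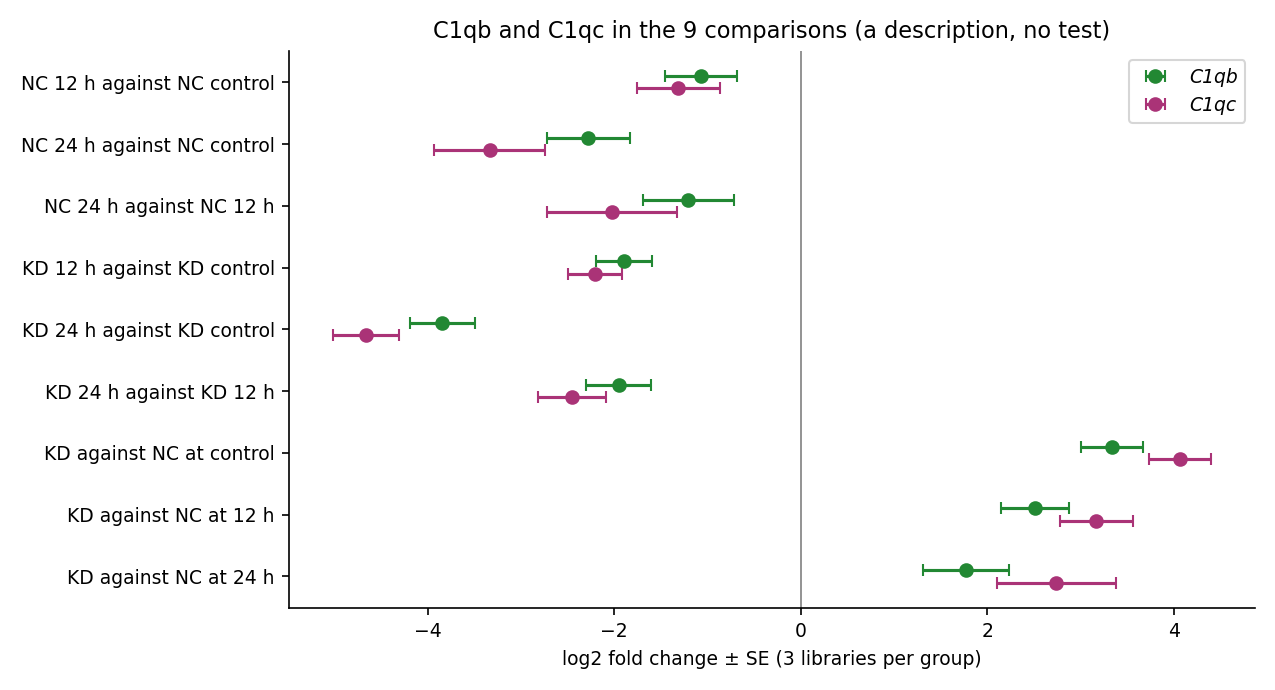
Log2 fold change of C1qb and C1qc in 9 comparisons, with bars of 1 SE from the fit over all genes, as a description with no test. The 6 time comparisons lie below 0 and the 3 comparisons of KD with NC lie above 0, and the KD values at 24 h against control, -3.84 and -4.66, are the lowest for each gene.

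Ranked by mean CPM, C1qb and C1qc gave the same order of groups. That order was KD control, KD 12 h, NC control, KD 24 h, NC 12 h and NC 24 h. For C1qb the means were 67.7, 18.2, 6.69, 4.74, 3.20 and 1.33 CPM. KD control and KD 12 h, and KD 12 h and NC control, were apart, while each later neighbour overlapped with the next. For C1qc the means were 50.4, 10.9, 3.06, 1.97, 1.17 and 0.294 CPM, and NC control with KD 24 h was the only pair of neighbours that overlapped. After 24 h of oxyhemoglobin, KD cells thus held C1qb and C1qc at levels that overlapped with those of untreated NC cells. For C1qa, KD control stood apart from every other group.

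Levels per length put the 3 subunit transcripts in unequal amounts. The summed TPM of the 3 genes, which shifts with CT010467.2 between libraries, was 188, 149.8 and 175 in the KD control libraries and 14.7, 12.7 and 13.9 in the NC control libraries. It was 49.2, 40.7 and 45.0 in KD at 12 h and 7.79, 10.6 and 9.42 in KD at 24 h. In NC it was 5.71, 5.46 and 8.91 at 12 h and 1.67, 1.98 and 2.99 at 24 h. In KD control, C1qb made up 66.2% ± 8.32 (SD, n = 3) of the summed TPM, C1qc 26.3% ± 6.40 and C1qa 7.51% ± 2.49. C1q protein holds its chains in equal numbers, and these shares are of transcripts.

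The C1qa share in KD cells fell out of the range of the control libraries at 12 h. It was 9.36%, 8.49% and 4.67% in the KD control libraries and 0.793%, 1.99% and 1.81% at 12 h, and C1qa was listed at 0 at 24 h. The C1qa shares at 12 h rest on 1, 2 and 2 counts, under the floor of 3 counts. The C1qb share was 75.2% ± 3.38 at 12 h and 82.2% ± 4.31 at 24 h (SD, n = 3), and the C1qc share was 23.3% ± 2.85 and 17.8% ± 4.31. In NC cells the shares rest on few counts, with a C1qa share of 9.16% ± 15.9 at 12 h that comes from library 2 alone. The C1qc share uses the deposited length of 2149 bases and would be larger with the annotated 1931 bases.

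**Figure D3:**
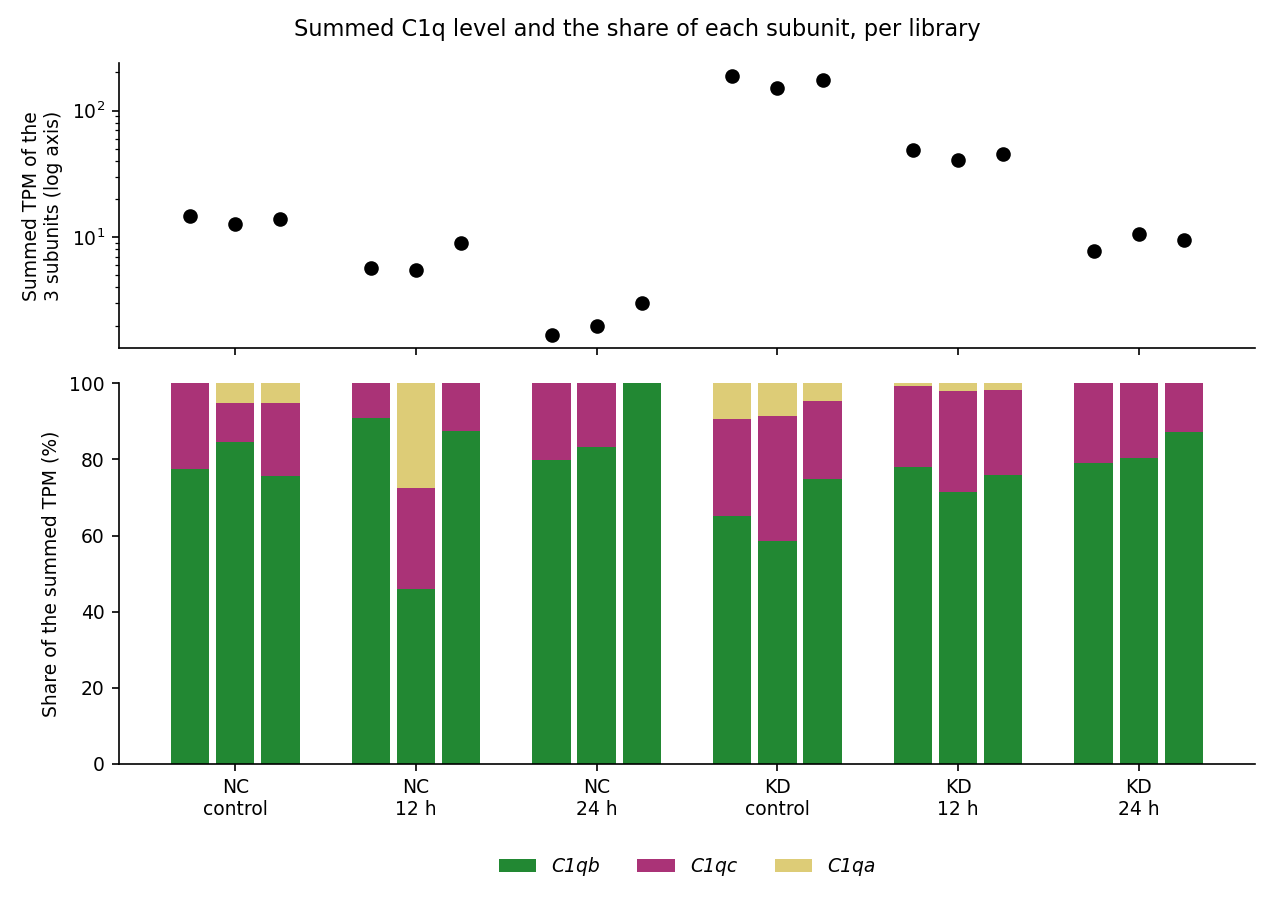
Summed TPM of the C1q genes per library on a log axis, and the share of each subunit in that sum, in percent, for the 18 libraries by group. C1qb makes up the largest share in every group mean, and the C1qa share in KD cells is 7.51% in control, 1.53% at 12 h (from 5 counts) and 0 at 24 h.

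The rest of the complement system was sparse in these cells. Of 92 complement and C1q-related genes in 8 lists, chosen with earlier results of these data known, 33 had no count in any library and 29 had enough counts to be tested. The test was edgeR's quasi-likelihood F test, and each adjusted p below is the Benjamini-Hochberg value over all 15996 genes. In NC cells, 7 of the 29 passed the adjusted threshold of 0.05 at 12 h against control (6 higher and 1 lower), beside 12.2% of all genes tested, and 8 passed at 24 h (5 higher and 3 lower), beside 7.57%. From 12 h to 24 h, 3 passed (1 higher and 2 lower), beside 2.76%. In KD cells, 6 passed at 12 h (5 higher and 1 lower), beside 16% of all genes, 4 at 24 h (3 higher and 1 lower), beside 9.59%, and 2 between 12 h and 24 h, both lower, beside 4.28%. Between the lines, 2 passed in control (1 higher and 1 lower in KD), beside 2.06%, 1 at 12 h, higher, beside 1.6%, and 2 at 24 h, both higher, beside 1.39%. The median log2 change of the 29 genes ranged from -0.05 to 0.25 over these 9 comparisons, while the median of all genes lay between -0.01 and 0.00.

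The libraries carry numbers 1 to 3 in each group, and libraries with the same number deviated together in the time comparisons and between the lines at 12 h. Between the lines in control and at 24 h they did so less evenly, with lowest correlations of 0.0703 and 0.0946. With the number as a block, calls were more frequent over all genes. In NC, the complement genes called with the block were 11 at 12 h (7 higher, 4 lower), beside 24.7% of all genes, 12 at 24 h, beside 18.9%, and 11 from 12 h to 24 h (4 higher, 7 lower), beside 11.5%. In KD they were 11 at 12 h (8 higher, 3 lower), beside 28.8%, 14 at 24 h (8 higher, 6 lower), beside 21.5%, and 4 from 12 h to 24 h, all lower, beside 12.3%. Between the lines at 12 h they were 5 (3 higher, 2 lower), beside 10.9%.

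The response to oxyhemoglobin was also compared between the lines. Without the block, edgeR called 0 complement genes for a different response at 12 h (3 of 29 at an unadjusted p under 0.05) and 0 at 24 h (5 of 29), beside 0.075% and 0.0313% of all genes, and DESeq2 called 0 of the 28 to which it gave an adjusted p at both times. With the block, edgeR called 2 at 24 h, beside 1.21% of all genes. These were C1ra, at -1.33 as KD minus NC (adjusted p = 0.0276, and 0.776 without the block), and Colec12, at 0.67 (adjusted p = 0.0188, and 0.815 without the block).

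Of the partners that C1q activates first, almost none were measured. C1s1 and C1s2, the mouse C1s proteases, and Serping1, the C1 inhibitor, had no count, and C1rb had 13 counts. C1ra, a C1r protease, fell in KD cells at 24 h by 1.07 ± 0.32 (SE) on the log2 scale (adjusted p = 0.0352). That call was lost without KD 24 h library 2 (adjusted p = 0.148), KD 24 h library 3 (0.0774), KD control library 1 (0.15) or KD control library 3 (0.0521). The lectin-pathway genes Masp1, Mbl1 and Mbl2 had no count.

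C3, the central component on which all complement pathways converge, rose at 12 h in both lines. It was at 108, 77.2 and 65.5 CPM in NC control, at 304, 214 and 281 CPM at 12 h and at 171, 150.1 and 192 CPM at 24 h. In KD cells it was at 108, 82.8 and 87.4 CPM in control, at 352, 210.0 and 179 CPM at 12 h and at 169.9, 126 and 108 CPM at 24 h. The 12 h libraries were above the control libraries in both lines, and C3 in the 2 control groups overlapped. The rise at 12 h was 1.67 ± 0.24 (SE) log2 units in NC (adjusted p = 3.4e-05) and 1.42 ± 0.24 (SE) in KD (adjusted p = 0.000151). At 24 h C3 was still higher in NC, by 1.03 ± 0.24 (SE) (adjusted p = 0.00678), a call lost without NC control library 3 (adjusted p = 0.0536). In KD at 24 h the difference was 0.54 ± 0.23 (SE) (adjusted p = 0.172, and 0.0232 with the replicate block). From 12 h to 24 h C3 fell in KD by 0.87 ± 0.23 (SE) (adjusted p = 0.0322), a call lost without KD 12 h library 1 (0.27), KD 24 h library 2 (0.102) or KD 24 h library 3 (0.151). In NC that step passed with the block alone, at -0.62 (adjusted p = 0.0125).

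C4b, which C1s cleaves, did not pass in the fit without the block. Its log2 change was -1.09 ± 0.39 (SE) in NC at 12 h (adjusted p = 0.0746, and 0.0187 with the replicate block), and with the block it also passed in KD at 24 h, at -0.96 (adjusted p = 0.0451). Colec12, a collectin with a collagen-like stretch, fell in NC at 24 h by 0.65 ± 0.17 (SE) (adjusted p = 0.0185), a call lost without NC 24 h library 1 (0.0652), NC 24 h library 3 (0.103) or NC control library 2 (0.0767). In the alternative pathway, Cfb, which encodes factor B, had 23 counts in all. Cfp, which encodes properdin, rose at 24 h by 0.75 ± 0.19 (SE) in NC (adjusted p = 0.0124) and by 0.66 ± 0.19 (SE) in KD (adjusted p = 0.0243). Each of these calls was lost when any of 3 libraries was left out. In NC they were NC 24 h library 3 (0.0651), NC control library 2 (0.0655) and NC control library 3 (0.0583). In KD they were KD 24 h library 1 (0.128), KD control library 1 (0.0679) and KD control library 2 (0.118). With the replicate block Cfp also passed at 12 h, at 0.48 in NC (adjusted p = 0.000343) and 0.42 in KD (adjusted p = 0.00114).

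Terminal components were nearly absent, with no count for C6 or C7 and 7 counts for Hc, which encodes C5. Among regulators, Cd55 and C4bp had no count. Clu, which encodes clusterin, a secreted inhibitor of the terminal pathway, rose in NC by 1.31 ± 0.22 (SE) at 12 h (adjusted p = 0.000178) and by 1.30 ± 0.22 (SE) at 24 h (adjusted p = 0.000328). In KD its log2 changes were 0.60 at 12 h (adjusted p = 0.0674, and 0.0109 with the replicate block) and 0.64 at 24 h (adjusted p = 0.0694, and 0.00752 with the block). Between the lines at 12 h it passed with the block alone, at -0.72 as KD minus NC (adjusted p = 0.00357).

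The receptor for the C3a fragment, C3ar1, moved with C3 over time and differed between the lines in the same direction as C1q. It was at 247, 244 and 259.5 CPM in NC control and at 457, 518 and 518 CPM in KD control, without overlap, a log2 difference of 0.99 ± 0.16 (SE) (adjusted p = 0.00108). At 12 h it was at 501, 486 and 598 CPM in NC and at 959.7, 874 and 982 CPM in KD. At 24 h it was at 313, 365 and 521 CPM in NC and at 671, 629.8 and 681 CPM in KD. C3ar1 thus was higher in every KD library than in any NC library at each time.

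C3ar1 rose at 12 h by 1.08 ± 0.16 (SE) in NC (adjusted p = 7.57e-05) and by 0.91 ± 0.16 (SE) in KD (adjusted p = 0.000303). At 24 h it was higher by 0.67 in NC (adjusted p = 0.0108), a call lost without NC 24 h library 3 (0.12), and its log2 change in KD was 0.41 (adjusted p = 0.13, and 0.00139 with the replicate block). The difference between the lines was 0.83 at 12 h (adjusted p = 0.00842), lost without NC 12 h library 1 (0.0617). At 24 h it was 0.73 (adjusted p = 0.0245), lost without KD 24 h library 1, 2 or 3 (0.0784, 0.0612 and 0.0953) or NC 24 h library 1 or 2 (0.119 and 0.0972). From 12 h to 24 h it passed with the replicate block alone, at -0.41 in NC (adjusted p = 0.00273) and -0.51 in KD (adjusted p = 0.000174). C5ar1, a receptor for C5a, had 30 counts in all and C5ar2 had none.

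Complement receptor 3, which binds cleaved C3 on targets for uptake, is made of the chains encoded by Itgam and Itgb2. Itgam rose at 12 h by 1.31 ± 0.31 (SE) in KD (adjusted p = 0.00437) and by 1.13 ± 0.32 (SE) in NC (adjusted p = 0.0222). The NC call was lost without NC 12 h library 1 or 2 (0.0901 and 0.0668) or NC control library 1 or 2 (0.0993 and 0.098). Itgb2 did not pass in any of the 9 comparisons, and its log2 change was 0.72 in KD at 24 h (adjusted p = 0.0584, and 0.000259 with the replicate block).

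Proteins reported to bind C1q moved in different directions. Calr, which encodes calreticulin, a chaperone that at the cell surface binds C1q, was at 231, 183 and 223 CPM in NC control, 654, 575 and 688 CPM at 12 h and 258, 348 and 576 CPM at 24 h. In KD it was at 332, 337 and 319 CPM in control, 750.0, 613 and 698 CPM at 12 h and 364, 341 and 375 CPM at 24 h. Calr rose at 12 h by 1.59 ± 0.20 (SE) in NC (adjusted p = 8.73e-06) and by 1.06 ± 0.20 (SE) in KD (adjusted p = 0.00058), and fell again in KD by 0.93 ± 0.20 (SE) from 12 h to 24 h (adjusted p = 0.00668). At 24 h it was higher than in control by 0.89 in NC (adjusted p = 0.00621), a call lost without NC 24 h library 3 (0.0872). From 12 h to 24 h in NC it passed with the replicate block alone, at -0.72 (adjusted p = 0.0375).

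Cd93, first described as a C1q receptor of phagocytes, fell with oxyhemoglobin but was lower, not higher, in KD control. It was at 2056, 1861 and 1902 CPM in NC control, at 1194, 969 and 1143 CPM at 12 h and at 1303, 1246 and 1433 CPM at 24 h. In KD it was at 1241, 1132 and 1274 CPM in control, at 944, 773 and 829.7 CPM at 12 h and at 1077, 953 and 945 CPM at 24 h. Every KD control library lay below every NC control library. Cd93 fell in NC by 0.82 ± 0.14 (SE) at 12 h (adjusted p = 0.00035) and by 0.55 at 24 h (adjusted p = 0.0179). In KD it fell by 0.52 at 12 h (adjusted p = 0.0138), a call lost without KD 12 h library 2 or 3 (0.0541 and 0.056) or KD control library 1 (0.0508). The log2 difference between the lines in control was -0.67 ± 0.14 (SE) (adjusted p = 0.00999), lost without KD control library 2 (0.0509), and at 12 h it was -0.38 (adjusted p = 0.241, and 0.00098 with the replicate block). The block also called Cd93 in NC from 12 h to 24 h, at 0.27 (adjusted p = 0.0161), and in KD at 24 h against control, at -0.29 (adjusted p = 0.00477). C1qbp, which encodes a mitochondrial protein that binds the globular heads of C1q, did not pass in any of the 9 comparisons, with log2 changes of -0.31 to 0.23.

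Of 27 other genes with a C1q-like domain, 6 were tested. Mmrn2, which encodes a multimerin of the vessel wall, rose in NC at 12 h by 0.94 ± 0.22 (SE) (adjusted p = 0.0061) and fell from 12 h to 24 h by 1.16 ± 0.23 (SE) (adjusted p = 0.00523). It also passed as higher in KD at 12 h, a call kept in 18 of 29 alternative settings. Caprin2, which encodes an RNA-binding protein, rose in KD at 24 h by 1.63 ± 0.40 (SE) (adjusted p = 0.0104), a call lost without KD 24 h library 2 (0.084) or KD control library 3 (0.0703).

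**Figure D4:**
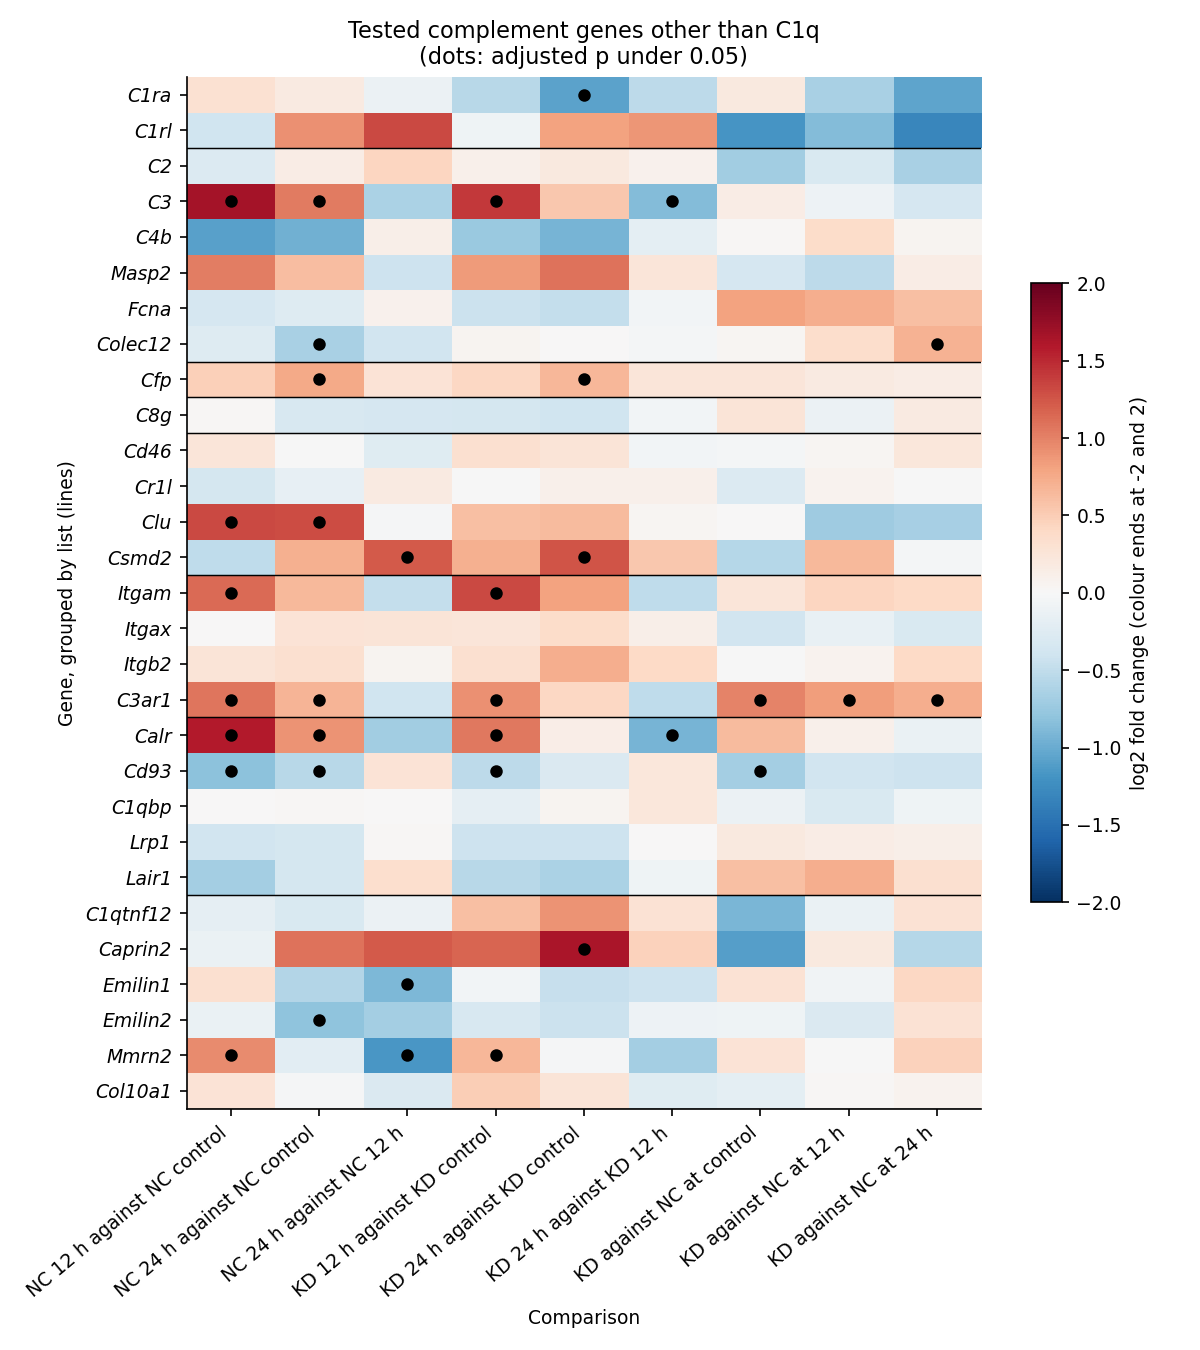
Log2 fold change of the 29 tested complement and C1q-related genes (rows, by role) in 9 comparisons (columns), on a colour scale from lower to higher, with dots where the edgeR adjusted p is under 0.05. C3, C3ar1 and Calr are higher at 12 h in both lines, and Cd93 is lower.

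Genes for macrophage transcription factors included several that fell with C1q. Of 24 such genes, 19 were tested, and those that passed were 2 higher and 5 lower in NC at 12 h (beside 12.2% of all genes), 5 lower in NC at 24 h (7.57%), 1 higher and 8 lower in KD at 12 h (16%), and 1 higher and 6 lower in KD at 24 h (9.59%). Their median log2 change was -0.37, -0.43, -0.42 and -0.55 in these comparisons, against medians of all genes between -0.01 and 0.00. Between the lines, 1 passed in control, higher in KD, beside 2.06% of all genes, and 2 at 12 h, 1 in each direction, beside 1.6%. The medians of the list, KD minus NC, were 0.21 in control, 0.05 at 12 h and 0.16 at 24 h.

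Maf, which encodes the transcription factor c-Maf, was at 59.5, 80.0 and 72.7 CPM in NC control, at 15.1, 21.7 and 15.3 CPM at 12 h and at 13.7, 22.2 and 25.6 CPM at 24 h. In KD it was at 87.7, 127 and 101 CPM in control, at 40.4, 40.3 and 33.0 CPM at 12 h and at 17.3, 23.2 and 13.6 CPM at 24 h. In NC the 12 h and 24 h libraries overlapped, while in KD the 24 h libraries lay below those at 12 h. Maf fell at 12 h by 2.02 ± 0.24 (SE) in NC (adjusted p = 2.43e-06) and by 1.47 ± 0.23 (SE) in KD (adjusted p = 5.14e-05), and at 24 h by 1.78 ± 0.23 (SE) in NC (adjusted p = 2.02e-05) and by 2.54 ± 0.24 (SE) in KD (adjusted p = 1.12e-07). From 12 h to 24 h in KD it fell by 1.07 (adjusted p = 0.00808), lost without KD 24 h library 1 (0.0512) or 3 (0.064). KD exceeded NC at 12 h by 1.12 ± 0.24 (SE) (adjusted p = 0.0138), lost without KD 12 h library 2 (0.0597), NC 12 h library 1 (0.0897) or NC 12 h library 3 (0.104). In control the line difference was 0.57 (adjusted p = 0.234, and 0.00427 with the replicate block).

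Spi1, which encodes PU.1, did not fall with C1q. It rose in NC at 12 h by 0.80 ± 0.20 (SE) (adjusted p = 0.0105), lost without NC 12 h library 1 (0.0637), NC control library 2 (0.0603) or NC control library 3 (0.0695). In KD at 12 h its log2 change was 0.51 (adjusted p = 0.0994, and 8.85e-05 with the replicate block). Cebpb, which encodes the inflammatory factor C/EBP beta, rose in NC at 12 h by 1.13 ± 0.25 (adjusted p = 0.00357) and in KD by 1.31 ± 0.25 at 12 h (adjusted p = 0.00075) and 1.35 ± 0.25 at 24 h (adjusted p = 0.000893). Tfeb, a regulator of lysosomal genes, fell by 1.17 and 1.41 in NC at 12 h and 24 h (adjusted p = 0.00598 and 0.00221) and by 1.48 in KD at 12 h (adjusted p = 0.000533). It also passed as lower in KD at 24 h, with log2 changes of -1.23 to -0.75 over the alternative settings, a call lost without KD control library 1. Irf8 did not pass in any of the 9 comparisons, and with the replicate block it was lower in NC at 24 h than in control, at -0.39 (adjusted p = 0.00121), than at 12 h, at -0.34 (adjusted p = 0.00769), and in KD at 24 h than at 12 h, at -0.29 (adjusted p = 0.0253). Spi1 was lower at 24 h than at 12 h with the block alone, at -0.59 in NC (adjusted p = 1.82e-05) and -0.43 in KD (adjusted p = 0.00119). The block also called Spi1 higher in KD than in NC in control, at 0.55 (adjusted p = 8.65e-05), and at 24 h, at 0.38 (adjusted p = 0.00705).

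Homeostatic microglia genes fell where they passed in the comparisons with control. Of 22, 13 were tested, and 3 passed in NC at 12 h (beside 12.2% of all genes), 5 in NC at 24 h (7.57%), 7 in KD at 12 h (16%) and 6 in KD at 24 h (9.59%), all lower. The median log2 changes were -0.62, -0.85, -0.67 and -0.92, beside medians of all genes between -0.01 and 0.00. Mertk, which encodes a receptor for the uptake of apoptotic cells, was at 34.8, 28.2 and 21.6 CPM in NC control and 7.65, 5.21 and 6.14 CPM at 12 h, with 12.2, 16.2 and 12.3 CPM at 24 h. In KD it was at 69.8, 55.3 and 56.2 CPM in control, 8.64, 7.76 and 5.88 CPM at 12 h and 13.8, 12.8 and 9.77 CPM at 24 h. Like C1q, Mertk was higher in every KD control library than in any NC control library, by 1.10 ± 0.21 log2 units (adjusted p = 0.00468), but its lowest libraries were those of 12 h. It fell by 2.16 ± 0.24 (adjusted p = 1.02e-06) and 1.05 ± 0.22 (adjusted p = 0.00353) in NC at 12 h and 24 h, and by 3.02 ± 0.24 (adjusted p = 3.58e-09) and 2.31 ± 0.22 (adjusted p = 1.86e-07) in KD.

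Trem2, a lipid receptor of microglia, fell by 1.13 and 1.02 in NC at 12 h and 24 h (adjusted p = 0.000183 and 0.000902) and by 0.97 and 1.28 in KD (adjusted p = 0.000598 and 4.41e-05). P2ry13, a nucleotide receptor, fell by 2.19 and 1.34 in NC (adjusted p = 0.000185 and 0.0129) and by 2.99 and 2.27 in KD (adjusted p = 3.24e-06 and 7.29e-05). Csf1r, the receptor for the macrophage growth factor CSF1, fell at 24 h by 1.58 in NC (adjusted p = 0.00101) and by 1.45 in KD (adjusted p = 0.00103), and in KD at 12 h by 0.99 (adjusted p = 0.0127), lost without KD 12 h library 2 (0.0815) or KD control library 3 (0.0514). With the replicate block alone, Csf1r passed in NC from 12 h to 24 h, at -0.98 (adjusted p = 0.0252), and Trem2 in KD from 12 h to 24 h, at -0.32 (adjusted p = 0.0397), and between the lines at 12 h, at 0.43 (adjusted p = 0.00465). Tyrobp, which encodes the signalling adaptor of Trem2, had 187 counts over all libraries and did not pass in any of the 9 comparisons.

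Pan-macrophage identity genes did not show that common direction. Of 14, 12 were tested, and those that passed were 4 higher and 1 lower in NC at 12 h (beside 12.2% of all genes), 2 higher and 1 lower in NC at 24 h (7.57%), 7 higher and 1 lower in KD at 12 h (16%), and 2 higher and 1 lower in KD at 24 h (9.59%). Cd14, a co-receptor for bacterial lipopolysaccharide, rose by 2.00 ± 0.15 (adjusted p = 2.63e-09) and 1.09 ± 0.15 (adjusted p = 2.46e-05) in NC at 12 h and 24 h, and by 1.34 ± 0.15 (adjusted p = 6.44e-07) and 1.27 ± 0.15 (adjusted p = 2.16e-06) in KD. The lower gene in each of these 4 comparisons was Mrc1, the mannose receptor. Mrc1 was at 7.72, 8.91 and 11.2 CPM in NC control, 2.93, 3.41 and 2.58 CPM at 12 h and 1.77, 0.941 and 4.05 CPM at 24 h. In KD it was at 26.5, 23.0 and 31.0 CPM in control, 7.34, 6.65 and 1.89 CPM at 12 h and 1.05, 2.09 and 2.38 CPM at 24 h. Unlike C1qb and C1qc, its KD and NC libraries overlapped at 12 h and at 24 h.

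Mrc1 fell in NC by 1.63 ± 0.42 at 12 h (adjusted p = 0.0103, lost without NC 12 h library 3 at 0.0514) and by 2.01 ± 0.43 at 24 h (adjusted p = 0.00433). In KD it fell by 2.33 ± 0.38 at 12 h (adjusted p = 0.000107) and by 3.88 ± 0.44 at 24 h (adjusted p = 1.54e-06). In control KD exceeded NC by 1.53 ± 0.36 (adjusted p = 0.0229). That call was lost without KD control library 1 (0.0691), KD control library 3 (0.108), NC control library 1 (0.0864), NC control library 2 (0.0893) or NC control library 3 (0.0518).

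With the replicate block, the genes called in these 3 lists together (44 tested) went up, as did the calls over all genes. In NC they went from 15 to 30 at 12 h (10 higher, 20 lower), beside a rise from 12.2% to 24.7% of all genes, from 13 to 24 at 24 h (5 higher, 19 lower), beside 7.57% to 18.9%, and from 4 to 14 between the times, beside 2.76% to 11.5%. In KD they went from 16 to 27 at 24 h (7 higher, 20 lower), beside 9.59% to 21.5%, and from 3 to 15 between the times, beside 4.28% to 12.3%. Between the lines at 12 h they went from 3 to 13 (10 higher, 3 lower), beside 1.6% to 10.9%.

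For a different response of the lines, edgeR without the block called 0 genes of the 3 lists at 12 h (8 of 44 at an unadjusted p under 0.05) and 0 at 24 h (5 of 44), and DESeq2 called 0 of 42 at both times. With the block, edgeR called 3 at 12 h, beside 2.07% of all genes, and 2 at 24 h, beside 1.21%. At 12 h these were Cd14, at -0.66 as KD minus NC (adjusted p = 0.00149), Ctsd, which encodes cathepsin D, at 0.84 (adjusted p = 0.0313), and Smad3, at -0.51 (adjusted p = 0.0437). At 24 h they were Mertk, at -1.29 (adjusted p = 0.00138), and Ctsd, at 1.04 (adjusted p = 0.00958). Without the block their adjusted p was 0.26 to 0.93.

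**Figure D5:**
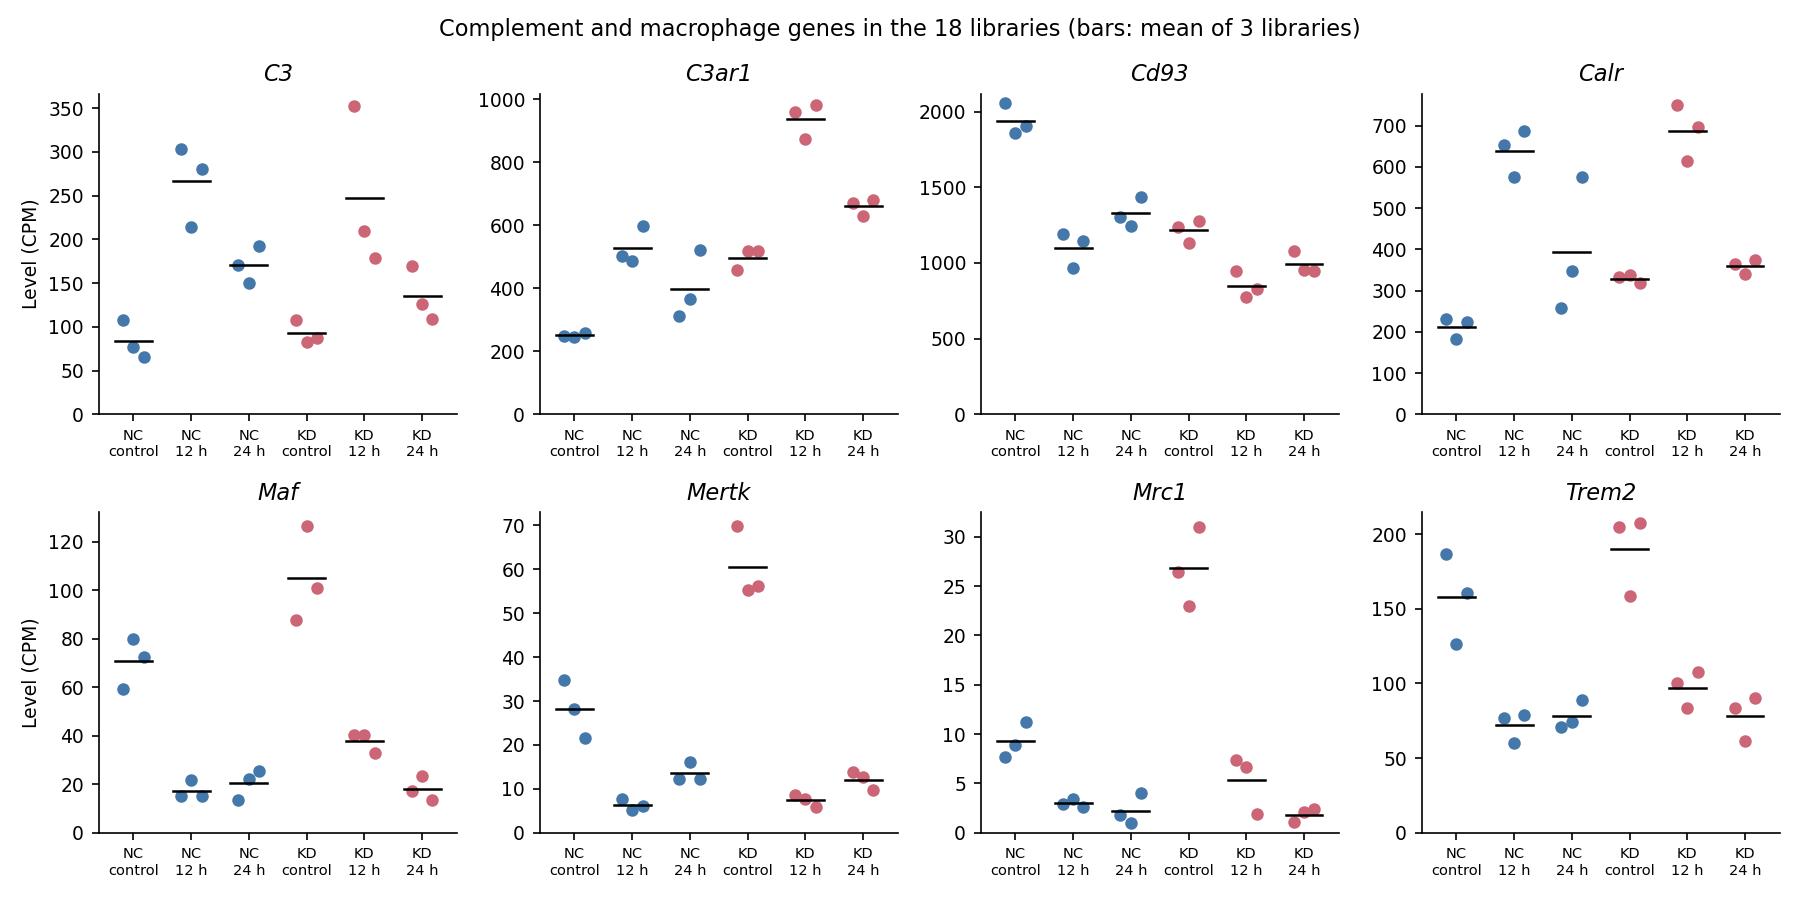
Level of C3, C3ar1, Cd93, Calr, Maf, Mertk, Mrc1 and Trem2 in each library, in TMM-scaled CPM on linear axes from 0, by group (3 libraries each, bars at their mean). The group means of C3, C3ar1 and Calr peak at 12 h, and those of Maf, Mertk, Mrc1 and Trem2 are below control at 12 h and 24 h in both lines.

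Among the genes beside the C1q cluster, only Zbtb40 and Wnt4 had enough counts to be compared, and they did not follow it. Of the 3 nearest protein-coding genes on each side, Ephb2, 44140 bases away, and Lactbl1 had 1 count each over the 18 libraries, and Tex46 and Epha8, the latter 30615 bases away, had none. Zbtb40, which encodes a zinc finger protein, lies 80928 bases away and had 14100 counts. Its group means lay between 144 and 170 CPM, with log2 changes of -0.07 ± 0.18 (SE) in KD at 12 h (adjusted p = 0.854) and 0.07 ± 0.18 (SE) in KD at 24 h (adjusted p = 0.889), and a line difference in control of -0.09 ± 0.18 (SE) (adjusted p = 0.917). Wnt4, which encodes a secreted signalling protein, lies 378685 bases away and had 628 counts. Its group means lay between 4.97 CPM in KD control and 8.55 CPM in NC at 12 h.

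Across the 18 libraries, C1qb and C1qc had the closest profiles of the 3 pairs, with Pearson r of 0.950 on log2 CPM. The r was 0.788 for C1qa with C1qb and 0.837 for C1qa with C1qc. These are descriptions over libraries of 6 groups that share lines and times. Likeness to C1q was ranked by the lowest of a gene's r with the 3 subunits, among 10810 genes with a mean of at least 5 CPM. The most alike were 9930111J21Rik1 (0.848), 9930111J21Rik2 (0.842), Tec (0.824), Gm37127 (0.801), Gm20658 (0.796), Tango2 (0.795), Dtx3l (0.792), Ssc5d (0.792), Ids (0.779) and Pld4 (0.778). 9930111J21Rik1 and 9930111J21Rik2 carry names of the same family, and reads that such copies share would be divided with uncertainty. Gm20658 is annotated as antisense, and the strand setting of the counting was not given in the sources used here. This ranking is loose, since 4 genes were over 0.8 and none over 0.9, and 1 of the 10 stayed among the top 10 by Spearman correlation and 0 by correlation over the 6 group means.

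Tec, which encodes a tyrosine kinase of blood cells, shows what this likeness means in levels. Its group means were 11.4, 6.25 and 6.07 CPM in NC and 19.9, 8.82 and 8.79 CPM in KD, at control, 12 h and 24 h. 9930111J21Rik1 was at 40.4, 26.8 and 17.2 CPM in NC and 73.1, 31.7 and 26.0 CPM in KD. Both were highest in KD control, but their range between groups was far smaller than that of C1qb. Among the genes of the lists, close ones included Runx1 (rank 15), Mrc1 (22), Maf (29) and Csf1r (35). The genes most opposite to C1q were Spink5 (highest r -0.883), Gm807 (-0.861), AC147806.2 (-0.861), Gfod1 (-0.853) and Gadd45a (-0.849). Spink5, which encodes a protease inhibitor, was at 52.9, 108 and 146 CPM in NC and 9.85, 70.1 and 79.0 CPM in KD.

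Markers of other cell types were low in all libraries beside those of macrophages. The 8 astrocyte markers summed to 8.47 to 16.8 CPM (4 at 0), the 8 oligodendrocyte markers to 1.98 to 9.88 CPM (3 at 0), the 8 erythroid markers to 10.4 to 18.8 CPM (5 at 0) and the 8 fibroblast and endothelial markers to 1.48 to 13.6 CPM (3 at 0). The fibroblast and endothelial sum was 1.48 to 2.65 CPM in NC control and 3.33 to 6.10 CPM in KD control, higher in KD as C1q was, and 6.97 to 8.10 CPM in NC at 24 h, higher where C1q was lower. The astrocyte sum was 10.2 to 13.7 CPM in NC control and 15.0 to 16.8 CPM in KD control, again higher in KD. The oligodendrocyte sum in KD was 7.07 to 8.54 CPM in control and 3.15 to 4.81 CPM at 12 h, lower at 12 h as C1q was. Their part in the C1q levels was not tested.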

How the data were processed

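Gene counts and TPM of 18 libraries were taken as deposited. Per the submitters' processing notes, bcl2fastq, HISAT2 2.2.0, featureCounts and DESeq2 were used, with GRCm38. The count table holds the authors' raw counts per gene. The deposited TPM equal counts over length, scaled per library, within 4.89e-05. The strand setting and the annotation release were not given in the sources used here.

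All gene lists and the C1q genes were chosen with earlier results of these data known. Counts were fitted in R 4.3.3 with edgeR 4.0.16 (quasi-likelihood, TMM factors, filterByExpr with a minimum count of 10, 6 groups, no block), which kept 15996 of the 28940 genes with counts (55487 listed). P-values were adjusted by Benjamini-Hochberg over all genes tested, with a threshold of 0.05. Totals of 4361313 to 6008810 counts per library make 3 counts, used as the floor for a count of 0, worth 0.457 to 0.760 CPM. The C1q values carry no test. Intervals are 95% exact and, like floors, cover counting error only.

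Named genes were the 3 C1q genes, 23 complement and microglia genes, up to 4 list members with the lowest adjusted p per comparison, the 10 genes most like and 5 most unlike C1q over log2 CPM (prior count 2, mean of at least 5 CPM), and 3 neighbours on each side. Some of these genes are not reported here. Positions and coding sequences are from GENCODE M21.

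Same-numbered libraries were taken as paired where the lowest correlation of their deviations was over 0.1. It was 0.148, 0.108 and 0.221 in NC (12 h and 24 h against control, 24 h against 12 h), 0.18, 0.17 and 0.26 in KD, and 0.2 between the lines at 12 h. It was 0.0703 in control and 0.0946 at 24 h, which were not taken as paired. Yet library 2 gave 0.444 and 0.372 there, and each of these groups was taken as paired in other comparisons. The rule thus does not show that the numbers are unrelated there. That pairing comes from the data, as no label explains the numbers.

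Alternatives were RLE and upper-quartile factors, other count filters, the replicate block, fits on the compared groups, DESeq2 1.42.0, limma 3.58.1 on log2 TPM with pseudocounts of 1 and 0.1, library totals for CPM, each library left out, and the 6 libraries numbered 2 left out. The scripts were tested on simulated data.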

Additional observations from a re-analysis of the deposited data

How the results depend on the processing

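No alternative turned the direction of the mean log2 change of the 3 C1q genes or of a called gene named in the text. Some calls were lost, also where no loss is given above. Without the libraries numbered 2, P2ry13 and Mrc1 in NC at 24 h were lost. In the compared groups, Cd93 and C3ar1 in NC at 24 h were lost, C3ar1 also on each TPM scale. On log2(TPM + 0.1) the losses included Maf in KD at 12 h and Mertk between the lines in control. Cebpb in NC at 12 h and in KD at 24 h was lost on both unfiltered TPM scales. Fits on the compared groups alone dropped a C1q gene in 6 comparisons and gave no C1q mean there. With C1qa at its 3-count bound, the mean change was -1.98 in NC at 24 h (-3.03 fitted), -1.20 in NC from 12 h to 24 h (-2.25), -4.53 in KD at 24 h (-5.55), -1.71 in KD from 12 h to 24 h (-2.76) and 2.26 over 2 subunits between the lines at 24 h (1.50). The mean CPM of each C1q gene and group moved by less than 1 SD with library totals in place of TMM.

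On log2(TPM + 1), with or without a filter, the C1q mean was -1.33 in NC at 24 h, -0.71 in NC from 12 h to 24 h, -2.23 in KD at 12 h, -3.85 in KD at 24 h, -1.63 in KD from 12 h to 24 h, 3.41 and 0.89 between the lines in control and at 24 h, and -1.61 for the difference in response at 12 h. With a pseudocount of 0.1 these were -2.54 in NC at 24 h, -1.53 in NC from 12 h to 24 h, -5.17 in KD at 24 h, -2.55 in KD from 12 h to 24 h, 2.57 between the lines at 12 h and -1.61 for the response at 12 h. A pseudocount lowers the change of low genes by construction. DESeq2 gave -2.53 in KD from 12 h to 24 h. Without the 6 libraries numbered 2 the mean was -1.96 in NC at 12 h, -1.18 in NC from 12 h to 24 h, 3.13 between the lines at 12 h and -0.93 for the response at 12 h.

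Leaving out 1 library at a time, the C1q mean ranged from -1.89 to -0.56 in NC at 12 h, from -3.17 to -2.92 in NC at 24 h and from -2.48 to -1.14 in NC from 12 h to 24 h. In KD it ranged from -2.93 to -2.64, from -5.69 to -5.40 and from -2.82 to -2.69. Between the lines it ranged from 3.86 to 4.15 in control, from 1.79 to 3.12 at 12 h and from 1.46 to 1.63 at 24 h, and for the responses from -2.24 to -0.91 at 12 h and from -2.65 to -2.36 at 24 h. Every value here that uses a 24 h group, within a line, between the lines or for the response, includes a fitted C1qa value. At 24 h against control the mean of C1qb and C1qc alone was -2.81 in NC and -4.25 in KD, against -3.03 and -5.55 with C1qa fitted. C1qa had 0 counts in both lines at 24 h. With all libraries the 24 h response mean was -2.52, against -1.57 for C1qb and -1.32 for C1qc. At 12 h it was -2.02, against -0.82 for C1qb and -0.89 for C1qc, with C1qa at 5 counts in KD and 4 in NC. Leaving out NC 12 h library 2 gave the extreme values -1.89, -1.14, 3.12 and -0.91, and without it C1qa had 0 counts in that group.

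Complement genes called ranged, with 1 library left out, from 6 to 8, 3 to 8 and 1 to 3 in NC, from 4 to 6, 1 to 5 and 1 to 3 in KD, and from 1 to 3, 0 to 1 and 0 to 2 between the lines, in the same order. The lowest counts in NC and KD at 24 h came without NC 24 h library 3 and KD control library 1. Genes called in the 3 macrophage and microglia lists ranged from 13 to 16, 12 to 14 and 2 to 4 in NC, from 16 to 25, 14 to 18 and 1 to 5 in KD, and from 1 to 5, 0 to 4 and 0 to 2 between the lines. The responses gave 0 throughout. Shares over all genes are not given for single libraries left out. No complement gene was called between the lines at 12 h or 24 h on either TPM scale without a filter (0 and 0), nor at 24 h with the filter (0), in the compared groups alone (0) or without the libraries numbered 2 (0), against 1 and 2. Over all genes the calls on log2(TPM + 1) were 123 and 119 of 28940, against 256 and 223 of 15996. At 24 h they were 103 of 16490 with the filter, 119 of 14118 in the compared groups and 59 of 15715 without the libraries numbered 2.

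Other complement counts that moved by over 1.5 times were, in NC at 24 h, 4 in the compared groups, 4 on log2(TPM + 1) with or without the filter and 3 with a pseudocount of 0.1, against 8. In NC from 12 h to 24 h the count was 5 with no filter, against 3. In KD at 24 h it was 2 on each TPM scale and 2 without the libraries numbered 2, against 4. In KD from 12 h to 24 h it was 1 in the compared groups, 4 on log2(TPM + 1) and 1 without the libraries numbered 2, against 2. Between the lines it was 1 in the compared groups in control, against 2, and 1 with upper-quartile factors or no filter at 24 h, against 2. For the 3 other lists, the counts were 2 in the compared groups and 2 without the libraries numbered 2 in NC from 12 h to 24 h, against 4, and 5 with no filter and 6 with DESeq2 in KD from 12 h to 24 h, against 3. Between the lines they were 5 with no filter, 5 with DESeq2 and 1 on log2(TPM + 0.1) in control and also at 12 h, against 3 each, 1 in the compared groups at 12 h, and 1 in the compared groups, 1 on log2(TPM + 1) and 0 without the libraries numbered 2 at 24 h, against 2. Calls over all genes moved as well. In NC at 24 h they were 748 of 14588 in the compared groups, against 1211 of 15996. On log2(TPM + 1) they were 851 of 28940, and 854 of 16490 with the filter. In KD at 24 h they were 1019 of 28940 and 1037 of 16490 on those scales, against 1534 of 15996. Without the libraries numbered 2 they were 1100 of 15715. The moves in the lists stand beside these moves over all genes, and their cause was not tested.

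With the replicate block, complement counts were 11 in NC at 12 h, 11 in NC from 12 h to 24 h, 11 in KD at 12 h, 14 in KD at 24 h, 4 in KD from 12 h to 24 h and 5 between the lines at 12 h, as given above, and the other lists had 30, 24, 14, 27, 15 and 13 in their comparisons. Where the libraries were not taken as paired, the block gave 6 complement genes between the lines in control (3 higher, 3 lower) and 6 at 24 h (2 higher, 4 lower). It gave 12 and 7 in the other lists, beside 9.35% and 9% of all genes. C1ra, Clu and Cd93 were lower in KD at 24 h with the block (adjusted p = 0.0024, 0.00827 and 0.000262). For the responses, whose pairing was not checked as such, it gave 2 complement genes at 24 h and 3 and 2 of the other lists at 12 h and 24 h. The block changed no other count here by over 1.5 times. Over all genes, the block raised the genes called from 1958 to 3948, 1211 to 3023 and 441 to 1841 in NC, from 2558 to 4600, 1534 to 3433 and 684 to 1971 in KD, and from 330 to 1496, 256 to 1737 and 223 to 1440 between the lines, and for the responses from 12 to 331 and 5 to 193. The other settings, fits on the compared groups among them but not those with 1 library left out, ranged from 1307 to 2165, 748 to 1393, 263 to 652, 1892 to 2716, 1019 to 1686, 433 to 845, 157 to 450, 99 to 384, 59 to 386, 2 to 53 and 1 to 38 in that order.

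Fits on log2 TPM moved the balance of directions over all genes, and the cause was not tested. The share of higher genes among those called went from 61.5% to 42.7% in NC at 24 h, from 59.2% to 16.1% in NC from 12 h to 24 h, from 49.6% to 63.3% in KD at 12 h, from 57.4% to 45.9% in KD at 24 h, from 65.8% to 33.9% in KD from 12 h to 24 h, and from 37.0% to 51.0%, 31.2% to 58.5% and 33.6% to 71.8% between the lines. The median of all genes moved on TPM to -0.12 in NC at 24 h, -0.16 in NC from 12 h to 24 h, 0.12 in KD at 12 h, -0.22 in KD from 12 h to 24 h, and 0.14 and 0.10 between the lines at 12 h and 24 h. In NC from 12 h to 24 h the C1q mean on log2(TPM + 1) was -0.71, beside a median of all genes of -0.14 with the filter. The part of these shifts in the C1q values on TPM was not tested. Depth limits C1qa, with 124 counts in all and 0 in 9 libraries.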
